A study of Mus musculus with 188 samples.

Results

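The 39 genes described here encode the machinery of mitosis, from the kinases that open it to the proteins that part the daughter cells at its end. They were chosen by symbol and function, with earlier results of these data known, and all 39 were found among the 25472 gene identifiers that the count tables of both experiments share. The cultures were coronal brain slices of wildtype C57BL/6J mice, kept on inserts until day 7 and then exposed to a blood-derived toxin or its plasma scavenger, after which polyadenylated RNA of the whole slice was sequenced. In the first experiment (batch 1), 60 cultures were read after 24 h, 10 in each of 6 groups, which were untreated control, heme-albumin at 12.5, 50, 200 or 400 µM, and heme at 200 µM with its scavenger, called hemeHpx as the treatment label has it. The titles of that group name haptoglobin, while its treatment labels, library names and the study's methods give hemopexin (Hpx), and the treatment label was followed. In the second experiment (batches 2 and 3), cultures were read after 24 or 48 h, and the groups were control (10 and 9 cultures), hemoglobin (Hb) at 200 µM (10 and 10) or 400 µM (10 and 10), the Hb-haptoglobin complex (HbHp) at 200 µM (8 and 8) or 400 µM (4 and 5), and haptoglobin (Hp) alone at 400 µM (12 and 11). The scavenger proteins were of human origin. The labels do not say which cultures came from 1 animal, so p-values measure the spread between these cultures, which may be technical. Another 21 libraries, whose labels disagree on the treatment or the time, entered no comparison.

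The libraries of the second experiment carry a prefix, E1 or E2, in their codes, called the round here because the labels do not explain it. Every HbHp library was of round E2 and batch 3, and every Hp library was of batch 3, whereas the controls were mostly of round E1 and batch 2. Only 3 controls at 24 h and 2 at 48 h were of round E2, and only 1 control of each round and time was of batch 3. The comparisons with HbHp and Hp therefore rested on a fitted round and batch term, and each is given below also within a round. Total counts ran from 11038484 to 44199060 per library in the first experiment and from 15587938 to 54174784 in the second. The summed level of 7 neuron markers was 53.6 to 147 CPM (counts scaled to a common library size) in the batch 1 controls, against 7883 to 11865 CPM for 7 astrocyte markers and 13090 to 24452 CPM for 6 oligodendrocyte markers, and no marker of these lists was absent from all libraries.

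Mitosis is driven by cyclin-dependent kinase 1 with its A and B cyclins, which drive chromosome condensation and spindle assembly. Kinetochores, multiprotein plates on each centromere, attach chromosomes to spindle microtubules, and a checkpoint holds back the anaphase-promoting complex until every chromosome is attached. Most of the genes are transcribed only late in the cycle of dividing cells, through promoters that carry a cell cycle homology region (CHR) and CCAAT boxes and that are read by the DREAM, MYB-MuvB, FOXM1 and NF-Y factors. Adult neurons do not divide. Among the other cells of a slice, astrocytes, oligodendrocyte precursors, microglia and vascular cells can. Which cells these transcripts came from was not tested. In whole-slice RNA, fewer dividing cells and less mitotic RNA per cell cannot be told apart.

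The promoters are shown first because the letters of the CHR and the CCAAT box are shared by most of these genes, and the 2 members that moved apart from the others in the data, Anln and Pttg1, are among those printed. Each sequence is 150 bases of the gene's own strand, from 120 bases before the annotated start to 30 bases from it, read 5′ to 3′ from RefSeq (GRCm38.p6). Capitals mark matches, on either strand, to the CHR letters (TTTGAA or TTCGAA) and to the CCAAT box. A match on the other strand reads as TTCAAA or ATTGG, and the last capitals of Anln belong to a match that runs past the printed end.
Top2a (chr11:99024160-99024309, strand -): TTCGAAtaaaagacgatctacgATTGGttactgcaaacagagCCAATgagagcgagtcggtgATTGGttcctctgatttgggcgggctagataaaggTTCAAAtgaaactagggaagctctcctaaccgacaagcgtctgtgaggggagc
Mki67 (chr7:135716350-135716499, strand -): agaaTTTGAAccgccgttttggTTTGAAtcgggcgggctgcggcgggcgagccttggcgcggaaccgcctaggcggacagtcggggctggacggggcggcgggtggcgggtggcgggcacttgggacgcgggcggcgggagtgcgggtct
Cdk1 (chr10:69352883-69353032, strand -): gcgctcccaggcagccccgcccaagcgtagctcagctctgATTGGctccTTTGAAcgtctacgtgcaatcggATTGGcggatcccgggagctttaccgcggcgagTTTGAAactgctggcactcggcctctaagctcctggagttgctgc
Ccnb1 (chr13:100786457-100786606, strand -): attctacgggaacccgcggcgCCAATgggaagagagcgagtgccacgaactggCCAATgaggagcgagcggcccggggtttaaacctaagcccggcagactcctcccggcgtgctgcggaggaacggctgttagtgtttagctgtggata
Ccnb2 (chr9:70421525-70421674, strand -): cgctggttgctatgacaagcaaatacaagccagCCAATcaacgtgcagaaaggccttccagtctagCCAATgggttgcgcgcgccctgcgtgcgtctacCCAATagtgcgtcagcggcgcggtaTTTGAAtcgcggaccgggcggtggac
Bub1 (chr2:127831830-127831979, strand -): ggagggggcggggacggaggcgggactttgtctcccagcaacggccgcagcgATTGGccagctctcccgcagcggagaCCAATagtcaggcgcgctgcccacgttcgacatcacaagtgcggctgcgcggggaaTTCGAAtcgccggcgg
Kif11 (chr19:37376262-37376411, strand +): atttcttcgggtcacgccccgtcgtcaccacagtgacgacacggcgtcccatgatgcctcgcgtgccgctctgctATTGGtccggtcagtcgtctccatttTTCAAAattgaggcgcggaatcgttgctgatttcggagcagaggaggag
Kif23 (chr9:61946770-61946919, strand -): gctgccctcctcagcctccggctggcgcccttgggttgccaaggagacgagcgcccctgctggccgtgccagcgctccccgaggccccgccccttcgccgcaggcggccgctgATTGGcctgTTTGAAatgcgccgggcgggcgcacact
Cdc20 (chr4:118437314-118437463, strand -): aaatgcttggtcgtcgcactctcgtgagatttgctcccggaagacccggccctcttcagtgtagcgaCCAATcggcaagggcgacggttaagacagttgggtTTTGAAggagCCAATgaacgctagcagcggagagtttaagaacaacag
Espl1 (chr15:102296173-102296322, strand +): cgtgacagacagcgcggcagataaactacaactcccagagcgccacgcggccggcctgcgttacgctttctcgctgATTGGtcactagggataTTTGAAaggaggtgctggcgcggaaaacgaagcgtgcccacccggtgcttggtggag
Anln (chr9:22389177-22389326, strand -): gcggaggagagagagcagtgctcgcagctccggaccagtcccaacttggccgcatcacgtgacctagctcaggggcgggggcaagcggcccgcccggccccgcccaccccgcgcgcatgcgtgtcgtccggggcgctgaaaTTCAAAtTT
Pttg1 (chr11:43425952-43426101, strand -): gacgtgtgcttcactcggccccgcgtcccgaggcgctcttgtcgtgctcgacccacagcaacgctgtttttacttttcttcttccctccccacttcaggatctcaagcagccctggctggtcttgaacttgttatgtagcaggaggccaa

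Of the 39 genes, 33 had a promoter window of 300 bases in the RefSeq table, from 250 bases before the start to 50 after it, and Aurkb, Ccna2, Incenp, Kif20a, Spc24 and Tpx2 had none. CHR letters were found in 26 of the 33 (78.8%), against 19.2% of all 32851 windows. A CCAAT box was found in 24 of the 33 (72.7%), against 37.4% of all windows, and 17 held at least 2 of them, against 11.7% of all windows with at least 2. Both motifs stood together in 22 members (66.7%), against 7.52% of all windows. The E2F letters (TTCCCGC or TTGGCGC, either strand), typical of genes of the G1 to S transition, were found in 3 members (9.09%), against 6.81% of all windows. The 5 members with neither CHR nor CCAAT letters in the window were Birc5, Mad2l1, Nuf2, Nusap1 and Pttg1. In the map of matches, CHR letters lay close to the start, with 25 of 34 matches between 50 bases before it and 49 after it, and CCAAT boxes lay upstream, with a median distance of -69 bases. A match is a description of these letters, not a bound site.

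**Figure D1:**
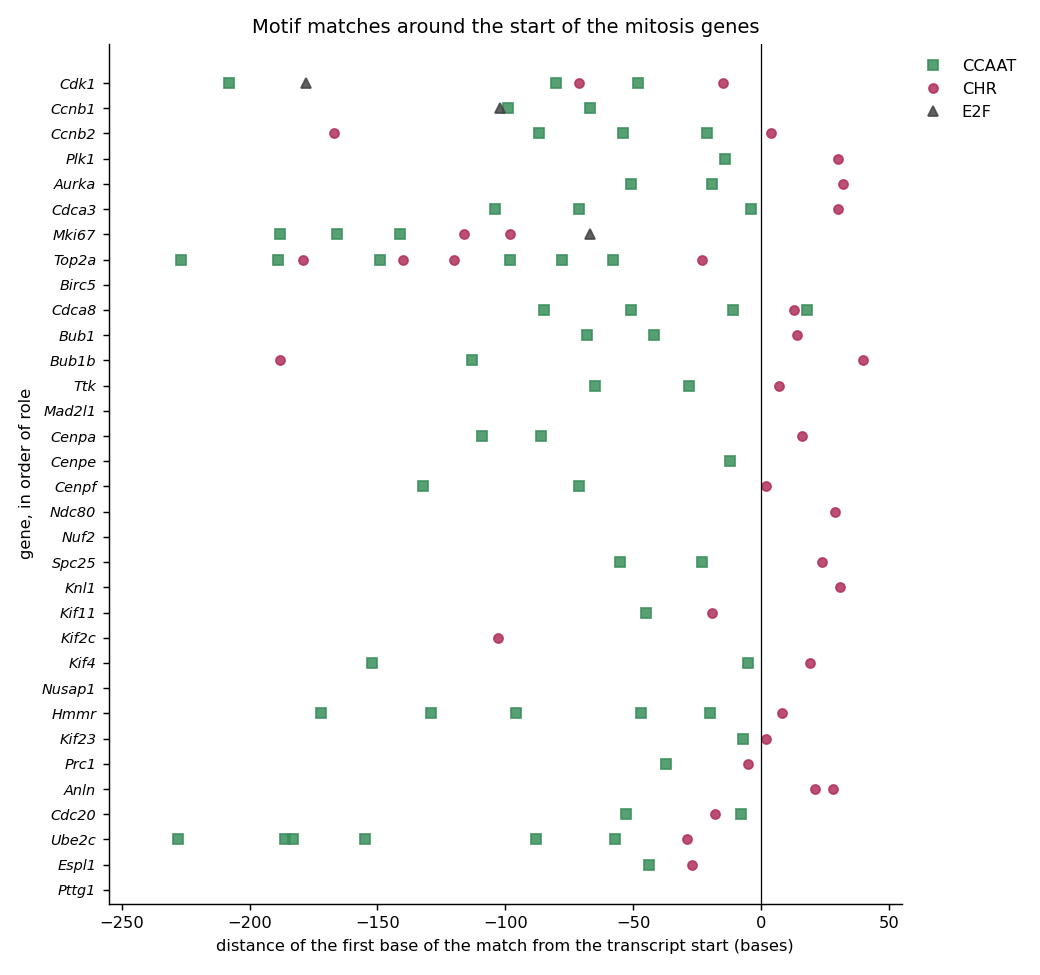
Position of CHR, CCAAT and E2F letters in the promoter windows of 33 mitosis genes, 1 line per gene, with the distance from the annotated start in bases on the x axis. CHR letters gather at the start, with 25 of 34 matches within 50 bases of it, and CCAAT boxes upstream of it.

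All 39 genes were measured in every library, and the lowest count of any member was 60 in the first experiment and 112 in the second, both in Spc24, a subunit of the NDC80 kinetochore complex. Per kilobase of transcript, Top2a, the topoisomerase that untangles sister chromatids, was the highest of the 39 in the batch 1 controls, with 42.2 ± 11.5 CPM per kb (SD, n = 10). Ccna2, the A-type cyclin, followed at 27.7 CPM per kb, and Prc1, which bundles the central spindle, at 24.4 CPM per kb. Knl1, the kinetochore scaffold that receives checkpoint proteins, was the lowest at 3.13 ± 0.976 CPM per kb, below Espl1 (separase, the protease that cuts cohesin) at 4.22 CPM per kb. Mki67, the gene of the Ki-67 protein that coats mitotic chromosomes, was at 16.3 CPM per kb in the batch 1 controls and at 27.2 in the controls of the second experiment, whose tables were scaled separately.

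Most of the genes varied together from culture to culture. After group means (and, in the second experiment, round and batch means) were removed, 37 of the 39 genes followed each other, with a median pairwise Pearson r of 0.92 (range 0.53 to 0.99) over 60 libraries of batch 1 and of 0.83 (0.46 to 0.97) over the grouped libraries of batches 2 and 3. These are descriptions of libraries that share culture, depth and scaling. Anln and Pttg1, singled out after their values were seen, did not follow the other 37. For Anln, the septin- and actin-binding anillin of the cleavage furrow, r with the mean of the others was -0.26 in batch 1 and 0.34 in batches 2 and 3. For Pttg1, the securin that holds separase inactive, r was -0.30 and -0.31. The level of both was also steadier between cultures of a group: the SD of log2 CPM within groups was 0.15 for Pttg1 and 0.17 for Anln in batch 1, against a median of 0.37 over the 39 genes, and 0.12 and 0.13 against 0.22 in the second experiment. The r of the mean of the 37 other genes with the mean of marker lists was, in batch 1 and in batches 2 and 3, -0.84 and -0.25 for oligodendrocytes, -0.80 and -0.23 for microglia, -0.78 and -0.33 for mural cells and fibroblasts, -0.75 and -0.29 for endothelium, -0.63 and -0.18 for border macrophages, -0.57 and -0.51 for neurons, 0.11 and -0.18 for oligodendrocyte precursors and 0.58 and 0.32 for astrocytes. In batch 1, Anln had its highest r with endothelial markers (0.44), then mural and fibroblast (0.43), microglia (0.40), border macrophage (0.34) and oligodendrocyte markers (0.25), and in batches 2 and 3 with oligodendrocyte markers (0.34). Pttg1 had its highest r with oligodendrocyte markers in both (0.46 and 0.31), and the part of the cell mixture in any difference between groups was not tested.

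**Figure D2:**
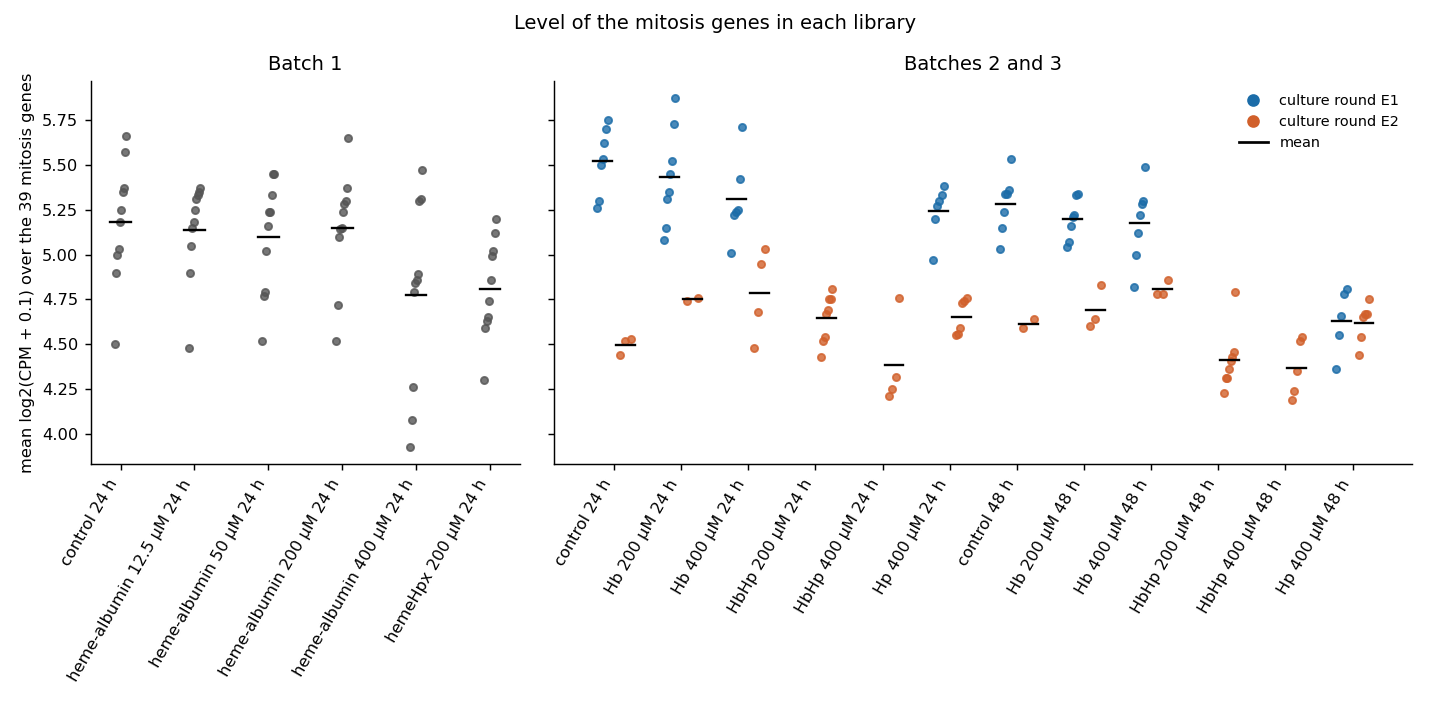
Mean level of the 39 mitosis genes in each library, as the mean over genes of log2(CPM + 0.1), by group. Batch 1 has its own panel, and points are colored by round, not by batch. Round E1 lies above round E2 in the controls, and the Hp 400 µM cultures of round E1 at 48 h lie at 4.36 to 4.81, below the 7 controls of that round at 5.03 to 5.53.

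In the first experiment, the comparison of the heme-albumin doses with control asked how these genes responded to free heme over 24 h. Low doses left no member past the test (adjusted p under 0.05 in edgeR's quasi-likelihood test), and at 400 µM 9 of the 39 were lower. At 12.5 µM, 0 members passed in either direction (0.00644% of all genes tested were lower) and 1 had an unadjusted p under 0.05. At 50 µM, 0 passed (0.0129% of all genes lower) and 0 had an unadjusted p under 0.05. DESeq2 also called 0 at both doses. At 200 µM, 1 member, Anln, was lower by a log2 fold change of -0.23 ± 0.08 (SE, n = 10 and 10, adjusted p = 0.0427), while 6.6% of all genes were lower and the median over the 39 was -0.04, and without the filter on low counts 0 passed. At that dose 6 of 7 microglia, 3 of 7 astrocyte, 2 of 5 border macrophage and 1 of 6 mural and fibroblast markers were lower and 1 of 6 oligodendrocyte precursor markers was higher, and their part was not tested.

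At 400 µM heme-albumin the share of members called lower was 23.1%, against 14.3% of all genes, and 38 of the 39 fold changes were below 0, with a median of -0.35 against -0.01 over all genes tested. DESeq2 called 14. Astrocyte markers (5 of 7 lower, median -0.40, summed level 5531 to 9490.1 CPM against 7883 to 11865 CPM in the controls), microglia markers (3 of 7 lower, median -0.70, 239.9 to 747 against 366 to 1241 CPM) and oligodendrocyte precursor markers (2 of 6 lower and 1 higher, median -0.18, 1137 to 1746 against 1329 to 1559 CPM) stood beside this result, together with 2 of 5 border macrophage markers lower (median -0.47), 1 of 6 endothelial and 1 of 6 mural and fibroblast markers lower and 1 of 7 neuron markers higher, and their part was not tested. The mean level of the 39 (log2(CPM + 0.1)) ran from 4.50 over a median of 5.21 to 5.66 in the controls and from 3.93 over 4.85 to 5.47 at 400 µM, so the groups overlapped widely. Mki67 ran from 80.6 CPM over a median of 162 to 232 in the controls and from 61.1 over 122 to 182 at 400 µM. Its log2 fold change was -0.49 ± 0.17 (SE, n = 10 and 10, adjusted p = 0.0253). Among the 9 called, the largest changes were in Ccnb2, a B-type cyclin (-0.57 ± 0.15, adjusted p = 0.00251), Birc5, the survivin subunit of the chromosomal passenger complex (-0.54 ± 0.15, adjusted p = 0.00403), and Mki67, and the smallest in Anln (-0.36 ± 0.08, adjusted p = 0.00035), Cenpe, a kinetochore motor (-0.43, adjusted p = 0.036) and Cdca3, a trigger of mitotic entry (-0.46, adjusted p = 0.0222). By role, 2 of 7 cyclins and entry kinases, 1 of 2 chromosome proteins, 1 of 4 passenger proteins, 1 of 4 checkpoint proteins, 2 of 8 kinetochore proteins, 1 of 6 spindle motors and binders, 1 of 4 cytokinesis proteins and 0 of 4 anaphase proteins were called.

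Of the 10 genes followed in full, 9 did not pass at 400 µM heme-albumin. Top2a ran from 113 CPM over 221 to 318 in the controls and from 73.6 over 160.5 to 263 at 400 µM. Cdk1, the kinase at the centre of mitosis, ran from 31.6 CPM over 48.6 to 59.4 and from 21.5 over 37.1 to 57.9. Ccnb1, its partner cyclin B1, ran from 23.2 CPM over 40.6 to 55.5 and from 11.5 over 29.2 to 48.6. Each of the 3 medians was lower with heme-albumin, and each pair of ranges overlapped. Codes with the letter M and the letter W differed in how many members passed, 1 of 39 (median log2 fold change -0.21) in 5 against 5 M cultures and 6 (median -0.58) in 5 against 5 W cultures, and a difference between the letters was not tested. Shares of all genes called within the M or the W cultures are not given, here or below, so these counts cannot be set against all genes.

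The hemeHpx group, whose titles name the other scavenger, asked what the same genes did when heme was held by a scavenger. Against control, 5 of the 39 were lower (12.8%, against 4.43% of all genes) and the median was -0.42, with 26 members at an unadjusted p under 0.05. Of the marker lists, 1 of 6 oligodendrocyte precursor markers was lower, Vcan (-0.38), and 1 of 5 border macrophage markers was higher, Pf4 (0.59). All 7 neuron markers (median 0.60, 2 at an unadjusted p under 0.05) and all 6 oligodendrocyte markers (median 0.23, 2 at an unadjusted p under 0.05) had fold changes above 0 with 0 called, and the part of the markers was not tested. Mki67 ran from 73.8 CPM over 119 to 154 with hemeHpx and Top2a from 98 over 154 to 209, inside or below the control ranges given above. The members called were Nusap1, which bundles spindle microtubules (-0.59 ± 0.18, adjusted p = 0.0431), the checkpoint kinase Bub1 (-0.53 ± 0.17, adjusted p = 0.0459), Ndc80, the microtubule-binding subunit of the outer kinetochore (-0.52 ± 0.16, adjusted p = 0.041), Cenpe (-0.51 ± 0.16, adjusted p = 0.0449) and Mad2l1, the checkpoint protein that binds Cdc20 (-0.42 ± 0.14, adjusted p = 0.0453). Ndc80 ran from 9.83 CPM over 16.4 to 25 in the controls and from 8.07 over 12.3 to 15.6 with hemeHpx. With the M or the W cultures alone, 0 members passed by edgeR, with medians of -0.37 and -0.47 and 17 and 10 members at an unadjusted p under 0.05, and DESeq2 was not run on these subsets. Over all cultures, the count was 0 with a GC correction, 0 without the filter on low counts and 17 by DESeq2. Heme-albumin at 400 µM and hemeHpx share their controls, and their doses differ.

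Set directly against heme-albumin at the same 200 µM, hemeHpx had 8 of the 39 lower and 0 higher (20.5% lower, against 12.9% of all genes lower and 13% higher), with a median of -0.39. The largest changes among them were in Kif23, a central spindle motor (-0.50 ± 0.19, adjusted p = 0.0427), Hmmr, a spindle assembly factor (-0.48 ± 0.18, adjusted p = 0.0446) and the checkpoint kinase Ttk (-0.47 ± 0.18, adjusted p = 0.0459), and the smallest in the motor Kif20a (-0.43), in Tpx2, which activates Aurora A (-0.42), and in Incenp, the scaffold of the passenger complex (-0.30 ± 0.10, adjusted p = 0.0285). The count was 0 with the M cultures alone (13 at an unadjusted p under 0.05), 0 with the W cultures alone (1 at an unadjusted p under 0.05) and 3 without the filter on low counts. Microglia markers stood beside this difference: 6 of 7 were higher with hemeHpx (median 1.0), and 6 of 7 were lower with 200 µM heme-albumin than in control (median -0.86), whereas 0 of 7 were called between hemeHpx and control, with 1 at an unadjusted p under 0.05. Their summed level ran from 366 to 1241 CPM in the controls, from 248 to 581 CPM with heme-albumin and from 395 to 1018 CPM with hemeHpx. Of 7 astrocyte markers 3, of 6 oligodendrocyte markers 2, of 5 border macrophage markers 3 and of 6 endothelial markers 1 were also higher with hemeHpx than with heme-albumin. All 7 neuron markers were above 0 (median 0.65) with 0 called by edgeR and 5 at an unadjusted p under 0.05, as were all 6 mural and fibroblast markers (median 0.44, 0 called, 1 at an unadjusted p under 0.05). Of 6 oligodendrocyte precursor markers 2 were lower, Olig1 (-0.33) and Olig2 (-0.44), with a median of 0.012 over the 6 and a summed level of 1194 to 1548 CPM against 1444 to 1717 CPM with heme-albumin. The part of these markers in the result was not tested.

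**Figure D3:**
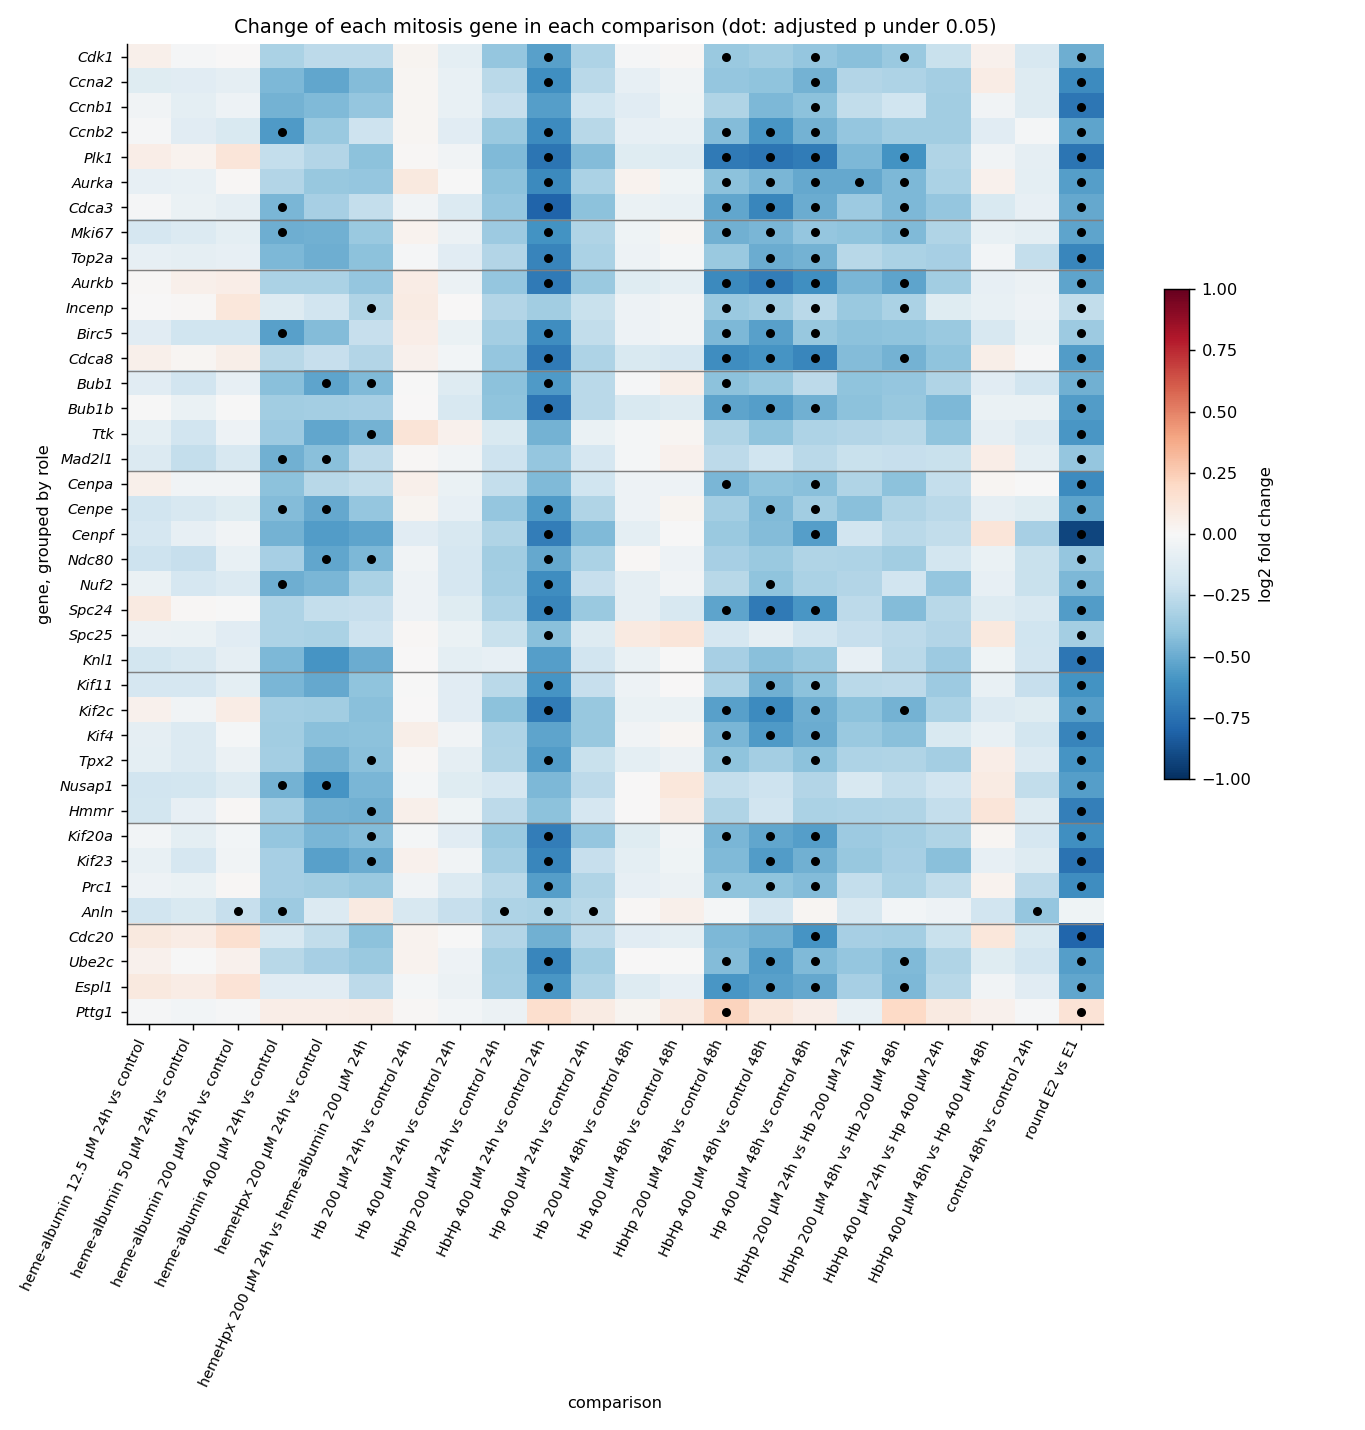
Log2 fold change of each of the 39 mitosis genes (rows, by role) in each comparison (columns), with calls at an adjusted p under 0.05 marked. Against control, most cells under HbHp and Hp at both times, under 400 µM heme-albumin and under hemeHpx are below 0, and those under Hb lie near 0.

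In the second experiment, Hb alone was compared with control at 2 doses and 2 times, and over both rounds no member passed in any of the 4 comparisons by edgeR with TMM scaling. The medians over the 39 genes were 0.015 and -0.077 at 24 h and -0.054 and -0.038 at 48 h for 200 and 400 µM, and the shares of all genes lower were 0.0182%, 0.0486%, 0.0304% and 0.115%. In the same order, 1, 1, 0 and 0 members had an unadjusted p under 0.05, and DESeq2 called 0, 1, 0 and 0. In edgeR, round E1 alone gave 1 at each dose at 24 h, Anln (-0.19 ± 0.041, adjusted p = 0.0314, and -0.19 ± 0.044, adjusted p = 0.0309), and for 400 µM at 24 h 1 member was also called in batch 2 alone and with DESeq2-type size factors. The direction differed by round. In round E2 at 24 h, the mean level of the 39 was 4.75 at 200 µM and 4.79 at 400 µM, against 4.5 in the controls. In round E1 at 24 h it was 5.43 and 5.31, against 5.52. At 48 h it was 4.69 and 4.81 against 4.62 in round E2, and 5.2 and 5.18 against 5.28 in round E1. A test of the difference between rounds is given below.

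With HbHp, 28 of the 39 were lower at 400 µM and 24 h, and 21 and 22 at 48 h, in fits that share controls and carry the round and batch terms, and within round E2 alone these counts were 0, 3 and 4. At 200 µM and 24 h, 1 member, Anln, was lower (-0.31 ± 0.076, adjusted p = 0.0106, against 0.273% of all genes), and the median was -0.31. Without one of the 3 controls of round E2 this count was 3 (without replicate 11), 6 (replicate 7) or 5 (replicate 8). In that comparison over both rounds, 0 cell type markers were called. All 6 endothelial markers were below 0 (median -0.61, 3 at an unadjusted p under 0.05), as were all 6 mural and fibroblast markers (median -0.44). All 7 microglia markers (median -0.22) and all 6 oligodendrocyte markers (median -0.14) were also below 0, and the median of 7 neuron markers was 0.47. At 400 µM and 24 h, 28 of the 39 were lower (71.8%, against 2.05% of all genes), with a median of -0.58. The largest changes were in Cdca3 (-0.80 ± 0.15, adjusted p = 0.00023), Plk1, the polo-like kinase (-0.73 ± 0.19, adjusted p = 0.00771) and Bub1b, the checkpoint protein BubR1 (-0.72 ± 0.17, adjusted p = 0.00337), and the smallest called in Ndc80 (-0.51), Spc25 (-0.42) and Anln (-0.32). Bub1b was at 19.7, 19.3, 15.7 and 28.4 CPM in the 4 HbHp cultures and at 25.1, 24.2 and 22.2 CPM in the 3 controls of the same round, while the 7 controls of round E1 ran from 38.8 over 53.3 to 65.5. So 3 of the 4 HbHp cultures were below the controls of round E2 and the fourth was above them, and all were below round E1. The count rested on single libraries: without HbHp replicate 4 it was 37, without replicate 1, 2 or 3 it was 9, 16 and 11. Within batch 3 alone, which holds every HbHp library, it was 2 (0.776% of all genes lower, 27 at an unadjusted p under 0.05, median -0.48). Within round E2 alone, 0 members passed at 400 µM and 24 h (0.451% of all genes lower, 5 members at an unadjusted p under 0.05, median -0.17), and 0 at 200 µM (0.0548% of all genes lower, 1 at an unadjusted p under 0.05, median 0.06). DESeq2 was not run within a round. Beside the fall at 400 µM and 24 h over both rounds, 2 of 6 oligodendrocyte precursor markers were lower, Vcan (-0.43) and Olig1 (-0.57), and all 6 were below 0 (median -0.28). Their summed level was 944 to 1303 CPM with HbHp, 1321 to 1688 CPM in the controls of round E2 and 1434 to 1686 CPM in those of round E1. The other marker lists had 0 members called by edgeR, with 2 oligodendrocyte and 1 border macrophage markers at an unadjusted p under 0.05. The part of these markers was not tested.

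At 48 h, 21 of the 39 were lower and 1 was higher with 200 µM HbHp (4.84% of all genes lower, 7.04% higher), with a median of -0.40. The largest falls were in Plk1 (-0.71 ± 0.16, adjusted p = 0.000894), Aurkb, the kinase of the passenger complex (-0.64 ± 0.14, adjusted p = 0.000689) and its subunit Cdca8, borealin (-0.62 ± 0.14, adjusted p = 0.00114), and the smallest called in Tpx2 (-0.40), Cdk1 (-0.37) and Incenp (-0.37). The one member that rose was Pttg1 (0.22 ± 0.074, adjusted p = 0.0362). Pttg1 ran from 21 CPM over a median of 23.6 to 34.1 in the 8 HbHp cultures and was at 19.6 and 21.2 CPM in the 2 controls of round E2. This call was not recomputed without single libraries of 200 µM HbHp. At 400 µM, 22 were lower and 0 higher (4.55% of all genes lower, 7.38% higher), with a median of -0.45, and Plk1 (-0.73 ± 0.18, adjusted p = 0.00214), Spc24 (-0.71 ± 0.18, adjusted p = 0.00412) and Aurkb (-0.69 ± 0.16, adjusted p = 0.00101) led. Nuf2, the partner of Ndc80 (-0.40), Prc1 (-0.40) and Incenp (-0.35) were the smallest called. All 4 passenger proteins were lower at both doses. The count at 400 µM was 14 without HbHp replicate 3 and 14 without replicate 4. Within batch 3 alone, 0 members passed at 200 µM (0.855% of all genes lower) and 1 at 400 µM (1.42%). At 400 µM, Aurkb was at 12, 13.5, 11.8, 10.7 and 13.4 CPM in the 5 HbHp cultures, and at 16.2 and 16.8 CPM in the 2 controls of round E2. None of the 5 reached either control. With the batch term but without the round term, 35 members passed at 200 µM and 24 h, 38 at 200 µM and 48 h and 36 at 400 µM and 48 h. The shares of all genes called in that fit are not given, and the rounds differed in 31.9% of all genes lower and 36.1% higher. Of the cell type markers at 48 h, 1 of 6 oligodendrocyte precursor and 1 of 7 astrocyte markers were lower at both doses, 1 of 7 microglia markers was lower at 400 µM, and 1 of 5 border macrophage markers was higher at both, and their part was not tested.

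Within round E2 alone, where 2 controls stand against 8 and 5 HbHp cultures at 48 h, 3 members were lower at 200 µM HbHp (1.2% of all genes) and 4 at 400 µM (1.32%), with medians of -0.27 and -0.33. Aurkb and Incenp were lower at both doses (Aurkb -0.51 and -0.57, adjusted p = 0.0449 and 0.0337), Cdca8 at 200 µM (-0.51), and Cdca3 (-0.57) and Birc5 (-0.56) at 400 µM. Apart from Cdca3 these belong to the chromosomal passenger complex, which corrects faulty attachments and marks the site of cleavage. Against Hb at 200 µM, HbHp had 1 member lower at 24 h (Aurka, the spindle pole kinase, -0.51, against 0.194% of all genes) and 11 at 48 h (1.83%), with a median of -0.34 and Plk1 (-0.60 ± 0.15, adjusted p = 0.00993), Aurkb (-0.53 ± 0.14, adjusted p = 0.0105) and Cdca8 (-0.47 ± 0.14, adjusted p = 0.0245) in front. Within round E2 alone, 0 passed at 24 h (0% of all genes lower, 7 at an unadjusted p under 0.05, median -0.20) and 0 at 48 h (0.0853%, 29 at an unadjusted p under 0.05, median -0.37). Without the filter on low counts over both rounds the counts were 0 and 6, and DESeq2 gave 4 at 24 h. Within batch 3 alone, 5 members passed at 24 h and 0 at 48 h, and the share of all genes called in that fit is not given. In batch 3 at 24 h, both Hb cultures were of round E1 and all 8 HbHp cultures of round E2. Treatment and round were therefore not separated there, and the 5 calls rested on a round term fitted from other groups. The part of cell type markers in this comparison was not tested. Only 2 Hb cultures at 24 h and 3 at 48 h were of round E2. Those 2 at 24 h were of batch 2 and all 8 HbHp cultures at 24 h of batch 3. The comparison within round E2 at 24 h therefore rested on a batch term fitted from other groups.

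With Hp alone, the scavenger with no hemoglobin, 28 of the 39 were lower at 48 h in the fit over both rounds, and this count was 0 within round E2 (median -0.07) and 0 within batch 3 (0% of all genes lower, 5 at an unadjusted p under 0.05, median -0.23). Every Hp library was of batch 3, and most of the 48 h controls were of batch 2. At 24 h, 1 member, Anln, was lower (-0.28 ± 0.068, adjusted p = 0.0303, against 0.231% of all genes), with a median of -0.28, and 0 passed within round E2 or within batch 3. At 48 h, the 28 called over both rounds were all lower (71.8%, against 5.88% of all genes lower and 4.88% higher), with a median of -0.42. Plk1 (-0.70 ± 0.14, adjusted p = 0.000719), Cdca8 (-0.65 ± 0.13, adjusted p = 0.000418) and Aurkb (-0.61 ± 0.13, adjusted p = 0.00082) changed most among the called, and Birc5 (-0.38), Cenpe (-0.35) and Incenp (-0.27) least. By role, 7 of 7 cyclins and entry kinases, 2 of 2 chromosome proteins, 4 of 4 passenger proteins, 1 of 4 checkpoint proteins, 4 of 8 kinetochore proteins, 4 of 6 spindle motors and binders, 3 of 4 cytokinesis proteins and 3 of 4 anaphase proteins were lower. Beside them, 2 of 6 oligodendrocyte precursor markers (median -0.16) and 1 of 7 astrocyte markers were lower, and 1 of 6 mural and fibroblast and 1 of 5 border macrophage markers were higher, and their part was not tested. HbHp at 400 µM differed from Hp at 400 µM in 0 members at either time by edgeR and by DESeq2, with 22 members at an unadjusted p under 0.05 at 24 h (median -0.30, 0.0972% of all genes lower, 4 called without HbHp replicate 4) and 1 at 48 h (median -0.04, 0.413%). Within round E2, 0 members passed at 24 h (0.14% of all genes lower, 22 at an unadjusted p under 0.05, median -0.27), and 3 were lower with HbHp than with Hp at 48 h, Birc5 (-0.43), Cdca3 (-0.42) and Anln (-0.31), against 1.58% of all genes.

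The fall with Hp at 48 h was found in round E1 and not in round E2. In round E1, 38 of the 39 were lower (97.4%, against 9.43% of all genes) with a median of -0.82, and the one member that did not pass was Pttg1 (0.11 ± 0.094, adjusted p = 0.424). Mki67 was at 209, 207, 173, 144 and 179 CPM in the 5 Hp cultures of round E1, against 239 over a median of 279 to 319 CPM in the 7 controls. Its log2 fold change was -0.75 ± 0.14 (SE, adjusted p = 0.00021). Aurkb was at 17.5, 15.2, 14.6, 10.4 and 15.3 CPM with Hp against 22.2 over 27.2 to 31 CPM in the controls, and its log2 fold change was -1.02 ± 0.15 (adjusted p = 1.18e-05). No Hp culture reached a control in either gene. Of the cell type markers, 1 of 6 oligodendrocyte precursor markers was lower, Vcan (-0.35, 3 at an unadjusted p under 0.05, median -0.18), 1 of 7 astrocyte markers was lower, Aldh1l1 (-1.04), 1 of 7 neuron markers was higher, Nefl (1.2, 5 at an unadjusted p under 0.05, median 0.87), and 1 of 5 border macrophage markers was higher, Pf4 (0.80). Of 7 microglia, 6 oligodendrocyte, 6 endothelial and 6 mural and fibroblast markers, 0 were called by edgeR and 0 had an unadjusted p under 0.05, with medians of 0.10, -0.077, 0.41 and 0.43. The summed level of the microglia markers ran from 517 to 1666 CPM with Hp and from 379 to 1624 CPM in the controls, that of the astrocyte markers from 6922 to 8257 CPM and from 5868 to 10556 CPM, and the part of the markers was not tested.

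In the other genes followed in full the groups were also apart in round E1 at 48 h. Top2a was at 156, 145, 113, 104 and 132 CPM with Hp, against 174 over 219.7 to 265 CPM in the controls (log2 fold change -0.83). Cdk1 was at 41.3, 38.5, 36, 30 and 30.5 CPM against 46 over 54.3 to 61.7 (-0.73), and Ccnb1 at 33.7, 34.7, 31.2, 26.1 and 35.2 CPM against 40.6 over 56.6 to 70.5 (-0.90). Every Hp culture was below every control in the 3 genes. Bub1b was at 34, 31, 25.6, 22 and 26.4 CPM against 36.1 over 46 to 55.4 (-0.86). Ndc80 was at 10.8, 9.4, 8.89, 8.88 and 9.39 CPM against 12.2 over 14.8 to 16.5 (-0.64). The checkpoint gene and the kinetochore gene showed no overlap between groups. Kif11, the motor that pushes spindle poles apart, was at 41.4, 39.1, 34, 30.6 and 41.2 CPM against 45.7 over 59.9 to 72.1 (-0.74). Cdc20, the activator of the anaphase-promoting complex, was at 28.7, 27.3, 20.4, 17.1 and 26.6 CPM against 30.7 over 43.9 to 54.7 (-1.01). Espl1 was at 19.5, 19.5, 15.2, 16.7 and 17.6 CPM against 22 over 27.1 to 34.6 (-0.75). Replicate 4 was the lowest Hp culture in each of the 10 genes apart from Espl1, and the ranges of Hp and control overlapped in none of the 10. The share of all genes whose ranges were apart is not given, so this count cannot be set against all genes. These genes varied together from culture to culture, so they are not separate observations.

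The remaining members of round E1 at 48 h fell by role as follows, as log2 fold changes of Hp against control. Among the entry kinases and cyclins, Plk1 changed most (-1.08 ± 0.19, adjusted p = 0.000115), running from 16.8 CPM over 22.5 to 24.2 with Hp and from 30.2 over 38.9 to 50.2 in the controls. Cdca3 (-0.91), Ccna2 (-0.90), Aurka (-0.89) and Ccnb2 (-0.82) fell by amounts between those of Plk1 and Cdk1. In the passenger complex, Aurkb and Cdca8 (-1.01) fell most, Birc5 by less (-0.75), and the scaffold Incenp least (-0.47). In the checkpoint, the kinase Ttk (-0.84) stood beside Bub1b, with Bub1 (-0.65) and Mad2l1 (-0.56) behind. At the centromere, Spc24 (-1.05), Cenpf (-0.87), the centromeric histone gene Cenpa (-0.85) and Knl1 (-0.80) fell most, and Cenpe (-0.68), Nuf2 (-0.64) and Spc25 (-0.48) less. Spc24 and Spc25 form one dimer of the NDC80 complex, and their changes lay at both ends of the kinetochore genes. Among spindle genes, the chromosome motor Kif4 (-0.89) and the microtubule depolymerase Kif2c (-0.85) fell most, followed by Tpx2 (-0.77), Hmmr (-0.70) and Nusap1 (-0.64). Of the central spindle, Kif20a (-0.89), Kif23 (-0.88) and Prc1 (-0.79) lay close together. Ube2c (-0.84), the ubiquitin-conjugating enzyme of the anaphase-promoting complex, fell together with Cdc20 and Espl1, and Pttg1 was the anaphase gene that did not pass.

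In round E2 at 48 h, 0 members passed with Hp (0.00609% of all genes lower), 0 had an unadjusted p under 0.05, and the median was -0.07. Mki67 ran from 162 CPM over 188 to 211 in the 6 Hp cultures and was at 196 and 189.7 CPM in the 2 controls, so the controls lay inside the Hp range. At 24 h, 0 passed in round E2 (0% of all genes lower, 2 at an unadjusted p under 0.05, median 0.05), and in round E1 Cdca3 (-0.54) and Anln (-0.39) were lower (0.213% of all genes), with a median of -0.40.

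**Figure D4:**
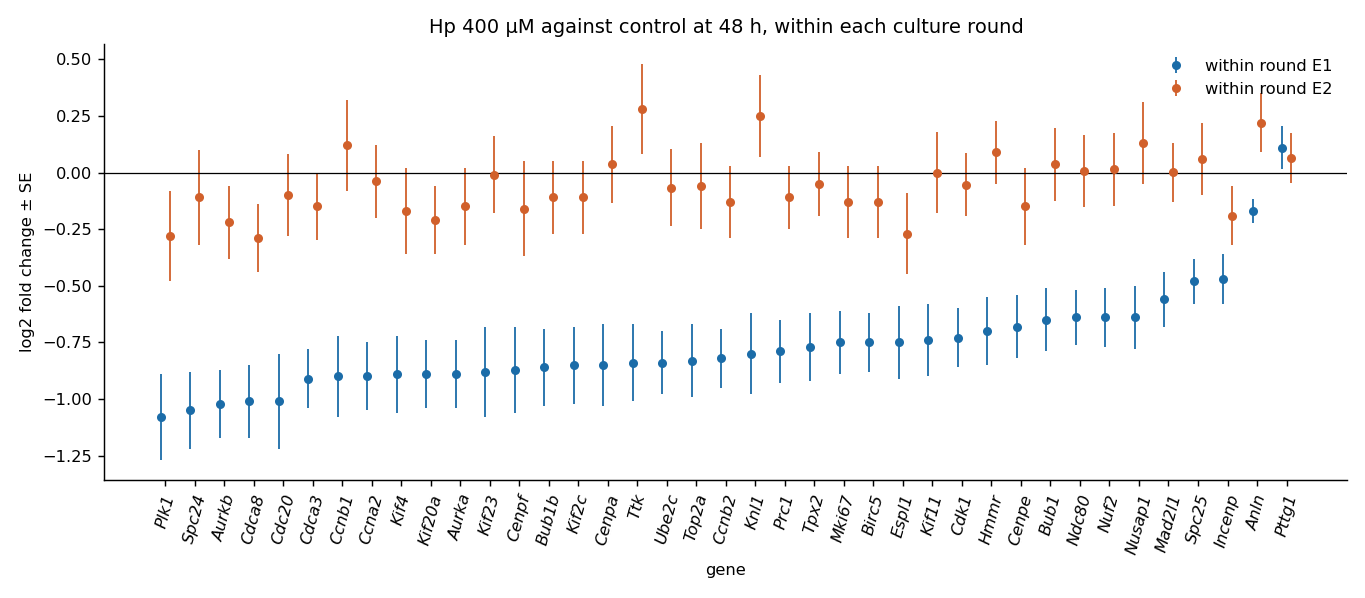
Log2 fold change (with SE) of each of the 39 mitosis genes for Hp 400 µM against control at 48 h, fitted within each round. In round E1 the Hp cultures lie below the controls (Mki67 144 to 209 against 239 to 319 CPM), and in round E2 the groups overlap.

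The rounds themselves differed in these genes. Over the whole second experiment, 37 of the 39 were lower in round E2 and 1 was higher, while 31.9% of all genes were lower and 36.1% higher, and the median of the 39 was -0.55 against 0.02 over all genes. Cenpf, a protein of the outer kinetochore (-0.92 ± 0.069), Cdc20 (-0.79) and Kif23 (-0.74) differed most, Pttg1 was higher (0.14 ± 0.031, adjusted p = 7.72e-05), and Anln was not called. Marker genes differed too: 7 of 7 microglia markers (median 1.05), 6 of 6 oligodendrocyte markers (median 0.47) and 5 of 6 mural and fibroblast markers were higher in round E2, and 4 of 6 oligodendrocyte precursor markers were lower. At 48 h the summed level of the 7 microglia markers ran from 379 to 1624 CPM in the 7 controls of round E1 and was 2139 and 2601 CPM in the 2 of round E2. Their part in the lower mitosis levels was not tested.

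By a fit with a mean for each group and round, added after the data were seen, the gap from round E1 to E2 was a fall of 37 members in the 24 h controls (median -1.12, against 11.2% of all genes lower) and of 36 in the 48 h controls (median -0.77, against 20.7%). In the Hb groups 36 and 37 were lower at 24 h and 32 and 19 at 48 h for 200 and 400 µM (medians -0.73, -0.56, -0.57 and -0.43, against 3.56%, 4.5%, 16.6% and 4.02% of all genes). In the Hp cultures 37 were lower at 24 h (median -0.59, against 17.9%), and at 48 h 1 was lower, Cenpf (-0.49), and 1 higher, Anln (0.22), with a median of -0.0043 (11.7% of all genes lower, 11.9% higher). The difference of the gaps between Hp and control was itself past the test in 36 members over both times (higher, median 0.61, against 2.9% of all genes), in 27 at 48 h (median 0.74, against 1.6%) and in 1 at 24 h, Birc5 (0.72, median of the 39 0.48, 32 at an unadjusted p under 0.05, against 0.0122%). For Hb minus control, 0 members passed (median 0.38, 35 at an unadjusted p under 0.05, 0% of all genes). DESeq2 was not run on these differences. At 48 h the gap difference of Ttk was 1.06 ± 0.25 (adjusted p = 0.0124), that of Knl1 1.03 ± 0.24 (adjusted p = 0.0108) and that of Spc24 0.97 ± 0.26 (adjusted p = 0.0241), and the smallest called were in Birc5 (0.64), Bub1 (0.65) and, at 0.68 each, Cdk1 and Nuf2.

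**Figure D5:**
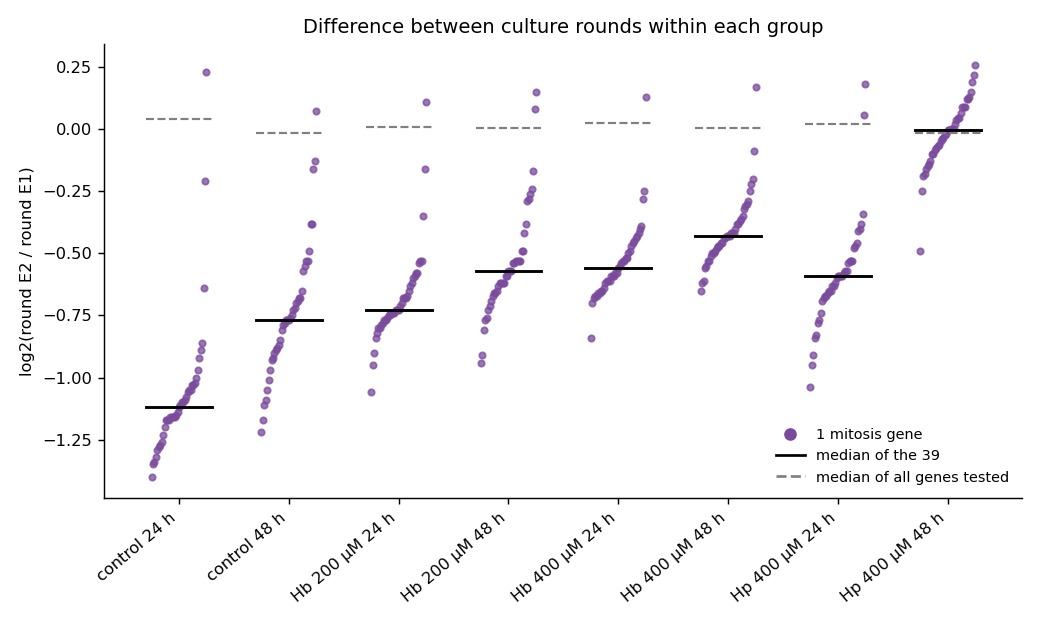
Median log2 difference of the 39 mitosis genes between rounds E2 and E1 in each group, with the single genes as points. The gap is below 0 in the controls (-1.12 at 24 h and -0.77 at 48 h) and the Hb groups and near 0 in the Hp cultures at 48 h.

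The labelled batch crosses this comparison, since the Hp cultures of round E1 were of batch 3 and 6 of the 7 controls at 48 h were of batch 2. Among the grouped libraries, the 3 cultures of batch 3, round E1 and 48 h without Hp, 1 each of control, 200 µM Hb and 400 µM Hb, had mean levels of the 39 genes of 5.15, 5.22 and 5.30, above the 5 Hp cultures at 4.81, 4.78, 4.55, 4.36 and 4.66. Another 7 libraries of batch 3, round E1 and 48 h have no group because their labels name different partners, and on a scale of total counts they were at 4.16 to 4.61, where the 5 Hp cultures ran from 4.35 to 4.86. Within batch 3 alone, where 1 control of each round stands at each time, 0 members passed for Hp at 48 h, 0 for 200 µM HbHp at 48 h (0.855%, 10 at an unadjusted p under 0.05, median -0.28) and 1 for 400 µM HbHp at 48 h (1.42%, median -0.33). DESeq2 was not run within a batch. The 2 controls of round E2 at 48 h were at 4.59 and 4.64, inside the range of the 5 Hp cultures of round E1. From 24 to 48 h, 37 members fell in the Hp cultures of round E1 (median -0.62, against 9.97% of all genes) and 0 in those of round E2 (median -0.042, 0 at an unadjusted p under 0.05, 0.0608% of all genes). The change from 24 to 48 h in round E1 did not pass the test of a difference between Hp and control in any member (median -0.39, 28 at an unadjusted p under 0.05, 0.0243% of all genes lower). Time alone changed few members. In the controls, 1 was lower at 48 than at 24 h, Anln (-0.39 ± 0.062, adjusted p = 7.24e-05, against 2.85% of all genes), with a median of -0.13. Anln was at 95.1 CPM or more (median 98.8) in the 7 controls of round E1 at 24 h and ran from 72 over 74.2 to 79 at 48 h, with no overlap. Of 6 oligodendrocyte markers, 3 were lower at 48 h in the same comparison, and their part was not tested.

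Anln and Pttg1 are given apart because their levels did not follow those of the other 37. Anln was the one member lower with 200 µM heme-albumin, with 200 µM HbHp at 24 h, with Hp at 24 h and between control times, and these calls were lost in other settings. At 200 µM heme-albumin it was 2.56% of the members against 6.6% of all genes, and it did not pass without the filter on low counts. For 200 µM HbHp at 24 h the log2 fold change was -0.16 (adjusted p = 0.731) within round E2 and -0.31 (adjusted p = 0.19) within batch 3, and for Hp at 24 h -0.079 (adjusted p = 0.923) and -0.23 (adjusted p = 0.463). Between control times it was -0.43 (adjusted p = 3.86e-09) in round E1 and -0.32 (adjusted p = 0.206) in round E2. At 24 h in round E1, Anln ran from 66.3 CPM over 74.4 to 88.7 in the 6 Hp cultures, below all 7 controls. In round E2 it ran from 73.1 over 77.4 to 84.2 CPM with Hp and from 77.2 over 81.5 to 100.3 CPM in the 3 controls, which overlapped. Its fall with Hp at 48 h in round E1 (-0.17 ± 0.055, adjusted p = 0.0289) was the smallest of the 38 called. Pttg1 ran from 17.3 CPM over 19.7 to 21.6 in the 48 h controls of round E1 and was at 18.4 to 25 CPM in the Hp cultures of round E1, which overlapped.

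Other genes of the cycle, from lists that do not overlap with the 39, are given beside the share of all genes lower in the same comparison. With Hp at 48 h in round E1, where 9.43% of all genes were lower, 26 of 28 genes of S phase and replication (median -0.53) and 35 of 38 further mitosis genes (median -0.71) were lower and 0 higher. Of 19 regulators of mitotic transcription, 10 were lower and 2 higher, among them the activators Foxm1 (-0.81 ± 0.14, adjusted p = 9.03e-05) and Mybl2 (-0.84 ± 0.18, adjusted p = 0.00132) and the repressors E2f7 (-0.97 ± 0.18) and E2f8 (-0.86 ± 0.14). Of 8 G1 cyclins and kinases, 5 were lower. Of 7 inhibitors of cyclin-dependent kinases 1 was higher, Cdkn1a, the p21 target of p53 (0.59 ± 0.13, adjusted p = 0.00187), and 1 was lower. In round E2, Cdkn1a gave 0.24 ± 0.14 (adjusted p = 0.662) for Hp and 0.41 ± 0.15 (adjusted p = 0.0994) for 400 µM HbHp at 48 h.

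With HbHp at 400 µM and 48 h over both rounds, where 4.55% of all genes were lower, 14 of 28 S phase genes were lower (median -0.35), with Tk1, the thymidine kinase of S phase, at -0.75 ± 0.15 (adjusted p = 0.00024) and within round E2 at -0.81 ± 0.18 (adjusted p = 0.00478). Of the further mitosis genes, 11 of 38 were lower, of the regulators 4 of 19 lower and 2 higher, and Cdkn1a was higher (0.58 ± 0.12, adjusted p = 0.000155). With heme-albumin at 400 µM, where 14.3% of all genes were lower, 5 of 28 S phase genes (17.9%, near that share, median -0.22), 9 of 38 further mitosis genes (median -0.35) and 5 of 19 regulators were lower, 1 regulator was higher, and Cdkn1a rose by 0.77 ± 0.11 (adjusted p = 8.76e-08). At this dose, 2279 of the 15535 genes tested were higher. Of 7 kinase inhibitors, 2 were higher and 1 was lower (median -0.022). Of 8 G1 cyclins and kinases, 2 were higher, led by the D-type cyclin Ccnd2 (0.51 ± 0.14, adjusted p = 0.00452), and 1 was lower, Ccne2, an E-type cyclin (-0.42 ± 0.16, adjusted p = 0.0352), with a median of -0.12. With hemeHpx against control, where 4.43% of all genes were lower, 4 of 28 S phase genes, 5 of 38 further mitosis genes and 2 of 19 regulators were lower, and Depdc1a, a mitotic gene of the further list, gave the largest change among them (-0.94 ± 0.27, adjusted p = 0.0363). Cdkn1a did not pass there (0.24 ± 0.11, adjusted p = 0.118).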

How the data were processed

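The 39 members, the gene lists and the tests were chosen with earlier results of these data known. The deposited values were whole-number gene counts, made by the authors with featureCounts on GRCm39 as the submitters' processing notes give it. Counts of the 2 experiments were deposited as 188 libraries, of which 167 were assigned to 18 groups by their labels. Gene symbols were joined by Ensembl identifier, and transcript lengths were those of the longest GENCODE transcript of each gene. Promoters came from a RefSeq table, with coordinates of GRCm38.p6, a build other than that of the counts. Genes with at least 10 counts in enough libraries and 15 in total were kept (15535 in batch 1 and 16454 in batches 2 and 3), TMM factors were computed, and edgeR 4.0.16 (R 4.3.3) quasi-likelihood F-tests were fitted over all groups of an experiment, with group in batch 1 and with group, round and batch in the second experiment. P-values were adjusted by the Benjamini-Hochberg method over all genes tested, with a threshold of 0.05. CPM used the TMM-scaled library sizes, and log2 levels a pseudocount of 0.1 CPM. DESeq2 1.42.0 was an alternative. The fits were tested on simulated counts.

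Named genes were 10 fixed members in full and, per comparison, the 3 called members with the largest and the 3 with the smallest fold change, and for other lists their counts and leading called gene. Outside that rule, and after their values were seen, all members were named for Hp at 48 h in round E1, and Foxm1, Mybl2, E2f8, Ccne2, marker genes, Anln, Pttg1 and, where it was not called, Cdkn1a were singled out, and in some comparisons fewer genes were named. Library codes recur in several groups (within-group repeats occur in 12 of 18 groups), and same-code libraries did not deviate together throughout: the correlation of their deviations had a median of 0.19 in 175 pairs of batch 1 (-0.03 for other codes, 55.4% of same-code pairs over 0.1) and of 0.06 in 300 pairs of the second experiment (-0.02 for other codes, 42% over 0.1), with a minimum of -0.66 in both. Not every pair was over 0.1 and the labels do not explain the codes, so the codes were not taken to pair the samples. No 2 libraries of the same group and batch had counts within sampling noise (630 pairs, smallest mean chi-square per gene 3.48), and pairs of a group across batches were not compared. Correlations between genes were taken on residuals of log2 CPM after group, round and batch means.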

Additional observations from a re-analysis of the deposited data

Results flagged for a closer look

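Gaps between the lowest or highest library of a group and its nearest neighbour were tested for 176 sets of values. The sets were the mean level of the 39 genes and the 10 genes followed in full, by group, and did not cover all 18 groups. Chance alone marks about 1 in 20 sets, and the sets of a group are not independent, because most of these genes varied together. In 400 µM HbHp at 24 h, replicate 4 stood above the other 3 in Cdk1 (37.7 CPM), Aurkb (16.2 CPM), Kif11 (43.8 CPM) and Espl1 (17.7 CPM). In 200 µM HbHp at 48 h, replicate 4 stood above the others in the mean level of the 39 genes (4.79), and replicate 1 stood below them in Espl1 (7.78 CPM). In batch 1, control replicate 13 was apart at the low end in Mki67 (80.6 CPM) and Ndc80 (9.83 CPM). Replicate 8 of 12.5 µM heme-albumin was apart in the mean level (4.48), Ccnb1 (18.1 CPM) and Kif11 (28.9 CPM), and replicate 9 of 200 µM heme-albumin in Espl1 (19 CPM).

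The difference between rounds E1 and E2 itself differed between Hp at 400 µM and control, by the test of that difference in 36 members over both times, in 1 at 24 h and in 27 at 48 h, each higher in Hp than in control.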

How the results depend on the processing

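Apart from leave-one-out, 161 counts of members called were recomputed, and 102 stayed within 1.5 times the count reported. The other counts follow, without the share of all genes called in the same fit, and causes were not tested. With the M cultures alone the counts were 0 for 200 µM and 1 for 400 µM heme-albumin, 0 for hemeHpx against control and 0 against heme-albumin, and with the W cultures 0, 0 and 0 (400 µM not moved). Without the filter on low counts they were 0 for 200 µM heme-albumin, 0 for hemeHpx against control, 3 for hemeHpx against heme-albumin, and 0 at 24 h and 6 at 48 h for 200 µM HbHp against Hb. With a GC correction 0 passed for hemeHpx. DESeq2 gave 14 for 400 µM heme-albumin, 17 for hemeHpx, 1 for 400 µM Hb, 2 for 200 µM HbHp and 3 for Hp at 24 h, and 4 for 200 µM HbHp against Hb at 24 h, and DESeq2-type size factors in edgeR gave 1 for 400 µM Hb at 24 h. In round E1 alone 1 and 1 passed for Hb at 24 h, 2 for Hp at 24 h and 3 between control times. In round E2 alone the counts at 24 h were 0 for 200 µM HbHp, 0 for 400 µM HbHp, 0 for Hp and 0 for HbHp against Hb, at 48 h 3, 4, 0 and 0, with 3 for HbHp against Hp, and 0 between control times. In batch 3 alone they were 0, 2 and 0 at 24 h for HbHp at both doses and Hp, 0, 1 and 0 at 48 h, 5 and 0 for HbHp against Hb, 1 for HbHp against Hp at 24 h and 0 between control times, and in batch 2 alone 1 for 400 µM Hb at 24 h. Without the round term 35 passed for 200 µM HbHp at 24 h, 38 at 48 h, 36 for 400 µM at 48 h, 0 for Hp at 24 h, 36 and 38 for HbHp against Hb and 3 for HbHp against Hp at 24 h. With the library code as a replicate block, codes that were not taken to pair the samples, 22 passed for 400 µM heme-albumin, 20 for hemeHpx and 16 for hemeHpx against heme-albumin, and at 24 h 0 for 200 µM HbHp, 12 for 400 µM HbHp, 0 for Hp and 0 for HbHp against Hb.

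Leaving out 1 library at a time of 400 µM HbHp or of the round E2 controls gave 1 to 6 for 200 µM HbHp at 24 h, 9 to 37 for 400 µM HbHp at 24 h, 22 to 27 and 14 to 28 at 48 h, and 0 to 4 (24 h) and 0 to 0 (48 h) for HbHp against Hp. Of 2170 values of single genes, 1980 kept direction and call, 99 lost the call, 90 gained it and 1 turned, Ccnb1 with Hp at 48 h (0.12 in round E2 alone). Every member had at least 60 counts in every library.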

Other observations

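The 21 libraries without a group are given on log2(CPM + 0.1) scaled by total counts, as the mean over the 39 mitosis genes. In 20 of them the titles and treatment labels name different partners of Hb, and in 1 control the labels disagree on the time, so no group is assigned and no comparison was tested. Of the 20, the 7 of round E1 at 24 h ran from 4.57 over a median of 4.94 to 5.05, and the 7 at 48 h from 4.16 over 4.52 to 4.61. On the same scale the controls of round E1 ran from 5.31 over 5.59 to 5.86 at 24 h and from 5.02 over 5.37 to 5.60 at 48 h, and Hp at 48 h in round E1 from 4.35 over 4.71 to 4.86. In round E2, the 3 at 24 h ran from 4.54 over 4.72 to 4.76 and the 3 at 48 h from 4.30 over 4.48 to 4.87. The 1 library labelled control with disagreeing times was at 4.38.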
